A study of Mus musculus with 4 samples.

Results

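Lysosomal enzymes and membrane proteins were examined in RNA-seq libraries of LSK cells, which are mouse bone marrow cells without lineage markers that carry Sca-1 and c-Kit and include hematopoietic stem cells and multipotent progenitors. The 36 genes were listed by symbol as lysosomal enzymes and membrane proteins, a choice made with earlier results of these data known, and all of them were found among the 47561 genes listed. They comprised 9 cathepsins and other proteases, 12 glycosidases and sulfatases, 7 genes of lipid handling, 7 membrane proteins with the proton pump and a channel, and the transcription factor gene Tfeb. The series compared 2 Metrn f/f mice, in which the Meteorin gene is floxed (labelled wild type), with 2 Metrn cKO mice. The cKO mice have the same floxed gene, and their label adds LysM, read here as the driver of the deletion. All 4 mice were C57BL/6 and 12 weeks old, and each library stands for 1 mouse. LysM is a gene of myeloid cells, whereas the sorted LSK cells are progenitors, so Metrn need not be deleted in the cells measured. P-values and standard errors cover only the spread between these mice. They draw in part on other genes of similar level, so they are not the spread of a single gene. Where 4 values are given for a gene, they follow the order f/f 1, f/f 2, cKO 1, cKO 2. Metrn itself had 29.3, 66.3, 42.3 and 36.7 FPKM and was not lower in the cKO mice beyond the spread. FPKM, fragments relative to transcript length and library size, is the unit inferred for these values. Lyz2, the gene of the LysM driver locus, had 290, 2406, 2904 and 245 FPKM, so its transcripts were present in every library. Which cells they came from was not tested.

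Lysosomes are acidic organelles in which hydrolases take apart proteins, glycans, lipids and nucleic acids delivered by endocytosis, phagocytosis and autophagy. A proton pump keeps the lumen acidic, heavily glycosylated membrane proteins line the limiting membrane, and nutrient sensing at its surface controls TFEB, a transcription factor that switches on lysosomal genes through CACGTG-containing elements. In blood, phagocytes such as macrophages are rich in lysosomal proteases, while stem cells are known to keep lysosomes in a less active state.

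The TFEB element is shown first because lysosomal genes are the best known targets of this factor. RefSeq promoters on GRCm38.p6, which run from 250 bases before to 50 bases after the start of transcription, were matched for 32 of the 36 genes. The motif CACGTG, which reads the same on both strands, was present in at least 1 promoter of 12 of the 32 genes (37.5%), against 2187 of 27025 genes with a promoter (8.09%) and 1163 of 9628 matched genes that were tested for expression (12.1%). The longer motif TCACGTGA, which contains CACGTG, was present in 5 of the 32 genes (15.6%), against 304 of 27025 (1.12%) and 226 of 9628 (2.35%). In the further lists described below, CACGTG was present in 28.6% of hydrolases, 29.2% of membrane and transport genes and 25% of pump subunits. For TCACGTGA these shares were 9.52%, 25% and 16.7%. In the nutrient sensing, autophagy and cystatin lists CACGTG was at 26.3%, 21.1% and 0%, and TCACGTGA at 0%, 5.26% and 0%. The 5 of the 32 genes with TCACGTGA were Ctsa, Ctsd, Gla, Atp6v1a and Mcoln1. The windows around the motif are given for the 4 with the highest mean expression, 5′ to 3′ on the strand of the gene, with TCACGTGA in capitals.
Ctsd (chr7:142387908-142387937, minus strand): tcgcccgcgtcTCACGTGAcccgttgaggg
Ctsa (chr2:164833749-164833772, plus strand): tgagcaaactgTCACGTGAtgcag
Atp6v1a (chr16:44139373-44139402, minus strand): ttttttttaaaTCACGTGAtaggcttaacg
Mcoln1 (chr8:3500462-3500491, plus strand): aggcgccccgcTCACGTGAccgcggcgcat

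The motif began 99 bases before the RefSeq start in Ctsd, 13 in Ctsa, 132 in Atp6v1a and 46 in Mcoln1. These distances hold for the RefSeq starts used, since each window lies inside the span of its gene in the GENCODE annotation. The other genes with CACGTG were Ctsl, Lgmn, Gaa, Glb1, Naglu, Sgsh and Lamp1. A match describes these letters only and does not show that TFEB binds there.

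All 36 genes were expressed in every library, from 2.82 FPKM for Ids in Metrn cKO 1 to 469 FPKM for Psap in the same library. Their median was 22.3, 26.3, 21.8 and 22.5 FPKM, against 10.4, 7.87, 8.89 and 10.9 FPKM for the 13148 genes tested, those reaching 1 FPKM in 2 or more libraries. Together they took 0.361%, 0.417%, 0.389% and 0.354% of the FPKM sum. The 3 most abundant on average were Psap, Cd63 and Ctsd.

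**Figure D1:**
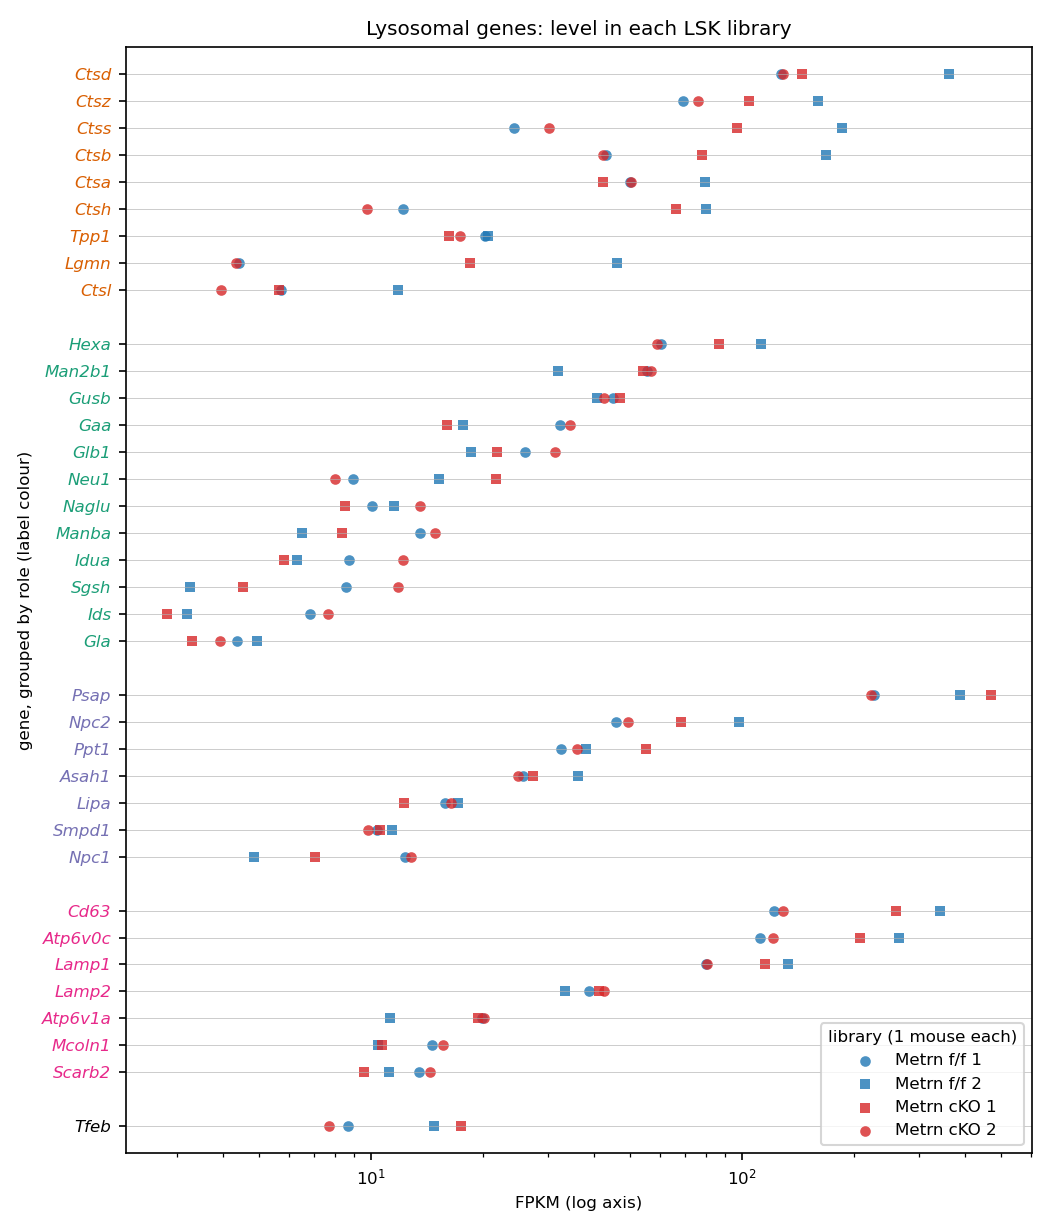
FPKM of the 36 lysosomal genes on a log axis, 1 point per library, with genes grouped by role and ordered by mean within a role; blue marks Metrn f/f, red Metrn cKO, and squares mark Metrn f/f 2 and Metrn cKO 1. The points of Metrn f/f 1 and Metrn cKO 2 lie close together for most genes, and Ctsh, Ctss and Lgmn have the widest range.

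The comparison between genotypes asked how loss of Metrn under a myeloid driver bears on lysosomal genes of LSK cells. No lysosomal gene passed the test: 0 of 36 higher and 0 of 36 lower at an adjusted p of 0.05 (limma on log2(FPKM + 1), 2-sided, Benjamini-Hochberg over all 13148 genes), where 0% of all genes tested were called in either direction. The smallest unadjusted p of a lysosomal gene was 0.259, so 0 of 36 lay under an unadjusted 0.05, against 39 of all 13148 genes. With so few genes under that limit, 0 of 36 does not set the lysosomal genes apart. By estimate 20 of the 36 were below and 16 above Metrn f/f, where 42.4% of all genes tested were below. The median log2 fold change was -0.073 against 0.067 over all genes tested. For 33 of the 36 genes the fold change was smaller than its standard error, which limma draws toward that of genes of similar level. With standard errors of 0.37 to 1.10 on the log2 scale, differences of the estimated size were not detectable with 2 mice per genotype, and the result does not show that levels are alike.

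Both Metrn cKO values lay below both Metrn f/f values in 3 genes (8.33%), against 5.73% of all genes tested. They lay above in 1 gene (2.78%), against 6.31%. The 3 genes were Ctsl, Tpp1 and Gla. Ctsl, a cysteine protease of the papain family (chromosome 13, positions 64359337 to 64370890 of GRCm38), measured 5.71, 11.8, 5.64 and 3.94 FPKM. Metrn f/f 1 and Metrn cKO 1 were nearly level, and the distance between groups came from the other 2 libraries. Its log2 fold change of -0.69 (SE 0.56) was the lowest of the 36 and did not pass. It was -0.23 without Metrn f/f 2 and -1.16 without Metrn f/f 1. Tpp1, a tripeptidyl peptidase that is lost in a childhood neuronal ceroid lipofuscinosis, measured 20.3, 20.6, 16.3 and 17.4 FPKM, that is 20.5 ± 0.233 against 16.8 ± 0.816 (SD, n = 2 each). Its log2 fold change was -0.27 (SE 0.39, which draws on other genes as well as on these close values). Gla, the alpha-galactosidase deficient in Fabry disease, had 4.36 and 4.91 FPKM against 3.30 and 3.91 FPKM (log2 fold change -0.29, SE 0.51). The gene with both Metrn cKO values above was Lamp2, a membrane glycoprotein needed for chaperone-mediated autophagy (chromosome X, positions 38401357 to 38456454), at 38.6, 33.3, 41.2 and 42.5 FPKM (log2 fold change 0.22, SE 0.37).

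**Figure D2:**
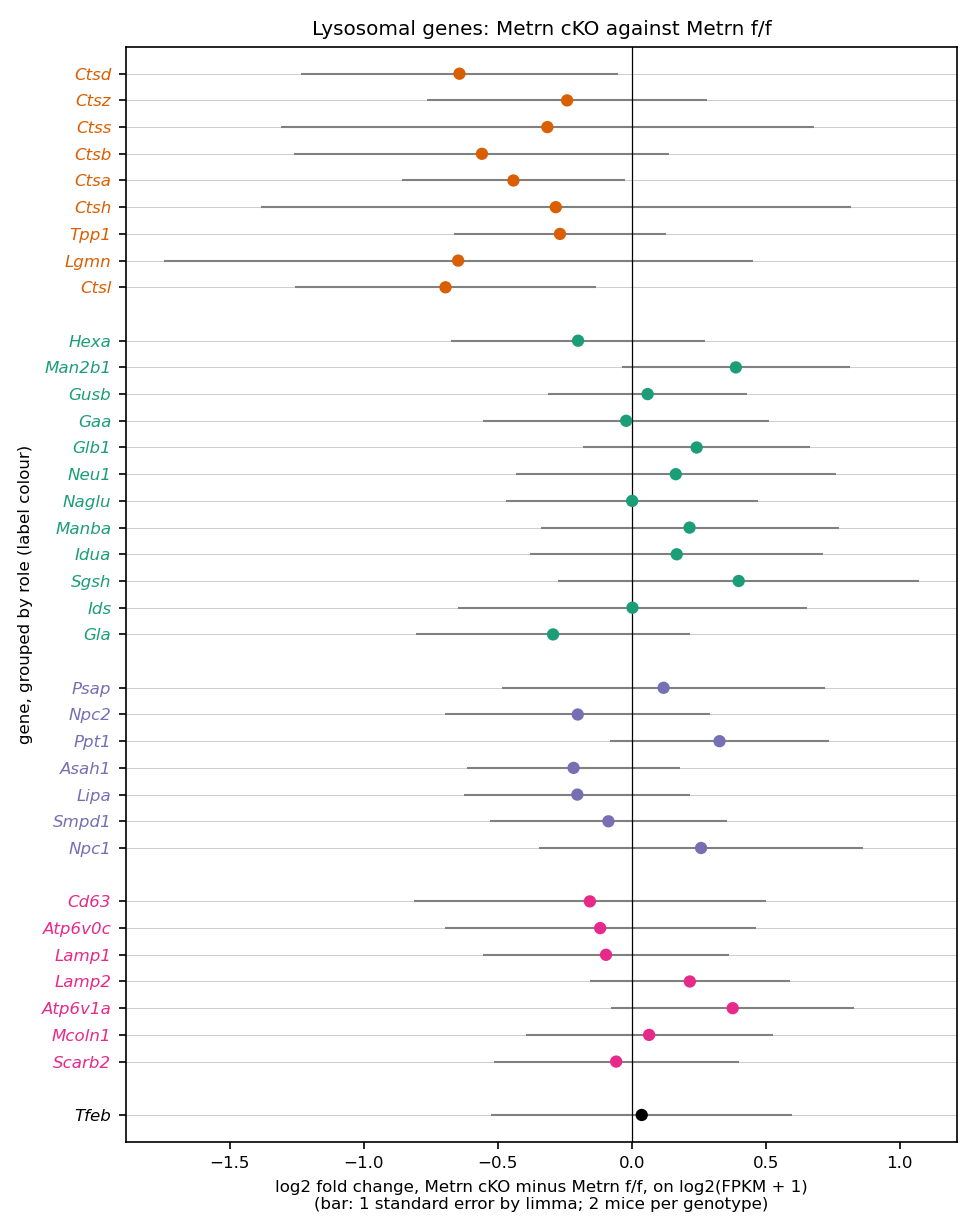
Log2 fold change of each lysosomal gene in Metrn cKO relative to Metrn f/f on the log2(FPKM + 1) scale, with bars of 1 standard error by limma (2 mice per genotype). Estimates run from -0.69 for Ctsl to 0.40 for Sgsh, and the bars of 33 of the 36 genes cross 0.

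By role, the 9 proteases all had a negative estimate (42.4% of all genes tested had one), with a median log2 fold change of -0.44. None passed the test. All 9 also had a negative estimate after rescaling to the same sum and after quantile normalization, with medians of -0.35 and -0.31. Without Metrn f/f 2, however, 3 of the 9 were negative and the median was 0.35, and without Metrn cKO 2 the median was -0.12 with 6 negative. Without Metrn f/f 1 it was -1.39 and without Metrn cKO 1 it was -0.91, with all 9 negative in both. Of the 12 glycosidases and sulfatases 3 had a negative and 9 a positive estimate, with a median of 0.11. That median turned negative, at -0.023, without Metrn f/f 2 and at -0.19 without Metrn cKO 2. The largest positive estimate of all 36 was that of Sgsh, the sulfamidase of heparan sulfate breakdown, at 0.40 (SE 0.67), followed by Man2b1, a lysosomal alpha-mannosidase, at 0.39 (SE 0.43). Sgsh was -0.18 without Metrn f/f 2 and -0.21 without Metrn cKO 2. Man2b1 was 0.00048 without Metrn f/f 2 and 0.78 without Metrn f/f 1. The medians were -0.087 for the 7 genes of lipid handling and -0.058 for the 7 membrane, pump and channel genes, and the latter was 0.026 after rescaling to the same sum and 0.042 after quantile normalization. Leaving out each library in turn gave -0.26 (without Metrn f/f 1) to 0.018 (without Metrn f/f 2) for lipid handling and 0.065 (without Metrn f/f 1) to 0.21 (without Metrn cKO 1) for the membrane genes, above 0 in each case.

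Mice of the same genotype differed from each other in many of these genes, and by most in 3 proteases. Each such comparison sets 1 library against 1, so none was tested. Metrn f/f 2 was at least 2-fold above Metrn f/f 1 on the log2(FPKM + 1) scale in 9 of the 36 genes (25.0%), against 13.7% of all genes tested. It was at least 2-fold below in 2 genes (5.56%), against 21.9%. Metrn cKO 1 was at least 2-fold above Metrn cKO 2 in 6 genes (16.7%), against 6.72% of all genes, and at least 2-fold below in 3 genes (8.33%), against 12.4%. Both differences reached 2-fold upward in Ctsh, Ctss and Lgmn (8.33%, against 4.43% of all genes) and 2-fold downward in Sgsh (2.78%, against 7.72%). Of the pairs across genotypes, Metrn cKO 2 and Metrn f/f 1 differed by 2-fold in no lysosomal gene. The shares of all genes were 0.745% in the upward and 0.616% in the downward direction. The ratio of Metrn cKO 2 to Metrn f/f 1 ran from 0.690 in Ctsl to 1.40 in Idua. The other pairs across genotypes passed 2-fold in some genes. On the log2 scale Lgmn was at -1.27 for Metrn cKO 1 minus Metrn f/f 2. It was at -3.15 for Metrn cKO 2 minus Metrn f/f 2 and at 1.85 for Metrn cKO 1 minus Metrn f/f 1.

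The FPKM sums differed between libraries, and the direction of these within-genotype differences depends on the scaling. The median difference of the lysosomal genes was 0.20 for Metrn f/f 2 minus Metrn f/f 1 and 0.12 for Metrn cKO 1 minus Metrn cKO 2, on the log2 scale, while all genes tested had medians of -0.23 and -0.24. After rescaling to the same FPKM sum the lysosomal medians were -0.54 and -0.31 and those of all genes -0.95 and -0.68. After quantile normalization they were 0.25 and 0.11, against -0.057 and -0.10. The lysosomal median thus lay above that of all genes under each of these 3 scalings, while its sign did not hold. Ctsh, Ctss and Lgmn reached 2-fold in both genotypes under all 3.

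**Figure D3:**
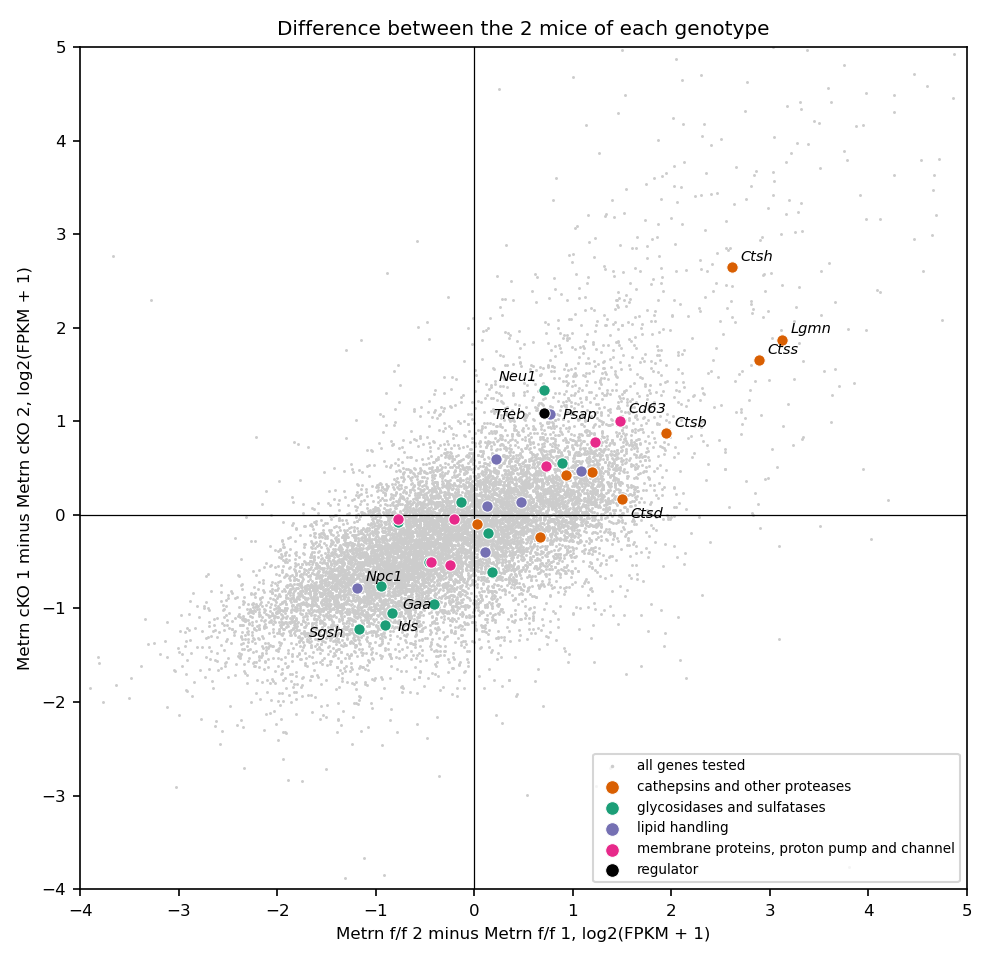
Difference between the mice of each genotype on the log2(FPKM + 1) scale, Metrn f/f 2 minus Metrn f/f 1 on the x axis and Metrn cKO 1 minus Metrn cKO 2 on the y axis; grey points are all genes tested (71 lie outside the axes) and coloured points the 36 lysosomal genes by role. Ctsh, Lgmn and Ctss lie at the upper right, and Sgsh, Ids, Gaa and Npc1 at the lower left.

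Across the 36 genes the differences in both genotypes went together (Pearson r = 0.87 over 36 genes, and 0.71 over all 13148 genes tested). This is a description across genes, which are not independent replicates, of values that share the same 4 libraries. The differences had the same sign in 30 of the 36 genes, against 75.7% of all genes. The sign of r and these shares depend on the order of subtraction, which was not the same in the genotypes. With same-numbered libraries r over all genes tested was -0.71. The range of the differences was wide. Metrn f/f 2 stood between 0.380 and 10.5 times Metrn f/f 1, and Metrn cKO 1 between 0.368 and 6.81 times Metrn cKO 2.

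The cathepsins, which degrade proteins in the lumen, and legumain held the largest differences. Ctss, a cysteine protease that trims the invariant chain of MHC class II in antigen-presenting cells (chromosome 3, positions 95526786 to 95556403), had 24.3, 186, 97.1 and 30.2 FPKM. Ctsh, an aminopeptidase of the same family (chromosome 9, positions 90054152 to 90076089), had 12.2, 80.1, 66.3 and 9.74 FPKM. Lgmn, the asparaginyl endopeptidase legumain (chromosome 12, positions 102394084 to 102439813), had 4.40, 46.1, 18.5 and 4.32 FPKM. In these 3 genes Metrn f/f 2 was highest, Metrn cKO 1 came next, and the ranges of the genotypes overlapped.

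Ctsb and Ctsd, a cysteine and an aspartic protease that are among the most abundant lysosomal proteases, were highest in Metrn f/f 2. Ctsb had 42.9, 168, 78.2 and 42.2 FPKM, with Metrn cKO 1 next. Ctsd (chromosome 7, positions 142375911 to 142388038) had 127, 362, 145 and 129 FPKM, so that its other 3 libraries lay close together. Their log2 fold changes between genotypes were -0.56 (SE 0.70) and -0.64 (SE 0.59), and these became 0.41 and 0.11 without Metrn f/f 2. Lgmn was likewise at -0.65 (SE 1.10), and at 0.91 without Metrn f/f 2 and 0.29 without Metrn cKO 2.

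Ctsz, a carboxypeptidase, had 69.5, 160, 105 and 75.9 FPKM and followed the order of Ctss. Ctsa, which besides its peptidase activity protects neuraminidase and beta-galactosidase, had 49.8, 79.5, 42.3 and 50.2 FPKM, with Metrn cKO 1 lowest. Metrn f/f 2 was the highest library in all 9 proteases on the deposited scale, but after rescaling to the same sum it was below Metrn f/f 1 in Ctsa and Tpp1.

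The glycosidases and sulfatases, which dismantle sugar chains, had shares near those of all genes. In 7 of the 12 (58.3%, against 49.1% of all genes tested) both Metrn f/f 2 and Metrn cKO 1 lay below the other mouse of their genotype: Gaa, Glb1, Idua, Ids, Sgsh, Man2b1 and Manba. The same held for 10 genes after rescaling to the same sum (83.3%, against 72.0%) and for 6 of the 12 after quantile normalization (against 41.3%). Gaa, the acid alpha-glucosidase that breaks down glycogen, had 32.3, 17.6, 16.1 and 34.4 FPKM. Glb1, the beta-galactosidase used as a senescence stain, had 26.1, 18.6, 21.9 and 31.4 FPKM. Man2b1 had 55.5, 32.0, 54.1 and 57.0 FPKM, with Metrn f/f 2 alone low. Glb1 and Man2b1 were thus lowest in the library in which all 9 proteases were highest, and Gaa was lowest in Metrn cKO 1.

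The other 5 genes were Hexa and Neu1, which were higher in Metrn f/f 2 and Metrn cKO 1, and Gusb, Gla and Naglu, whose differences had opposite signs in the genotypes. Hexa, the alpha subunit of beta-hexosaminidase, had 60.3, 113, 86.9 and 59.1 FPKM, the order of Ctsh. Neu1, a sialidase, had 8.95, 15.3, 21.7 and 7.97 FPKM, with Metrn cKO 1 highest. Gusb, the beta-glucuronidase, had the lowest ratio of highest to lowest library among the 36 genes, at 44.9, 40.8, 46.8 and 42.5 FPKM. The 6 lower genes Idua, Ids, Naglu, Sgsh, Manba and Gla, ranged from 2.82 to 14.8 FPKM. Sgsh and Ids, which act on heparan sulfate, had the lowest ratios of all 36 genes: Sgsh in Metrn f/f 2 was 0.380 times Metrn f/f 1, and Ids in Metrn cKO 1 was 0.368 times Metrn cKO 2.

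In lipid handling, Psap was the most abundant lysosomal gene of the set on average (chromosome 10, positions 60277627 to 60302597). It encodes prosaposin, the precursor of the saposins that present sphingolipids to their hydrolases. Psap had 228, 388, 469 and 222 FPKM, with Metrn cKO 1 and not Metrn f/f 2 highest. Npc2, the soluble cholesterol carrier of the lumen, had 45.7, 98.2, 68.5 and 49.4 FPKM. Npc1, its membrane partner in cholesterol export, went in the opposite direction at 12.3, 4.83, 7.05 and 12.8 FPKM. The partners thus differed in which libraries were high, in both genotypes and under all 3 scalings.

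Ppt1, a thioesterase that removes palmitate from proteins, had 32.6, 38.1, 55.0 and 35.9 FPKM, with Metrn cKO 1 highest. Asah1, the acid ceramidase, had 25.7, 36.1, 27.4 and 24.8 FPKM. Lipa, the acid lipase of cholesteryl esters, ranged from 12.3 to 17.2 FPKM. Smpd1, the acid sphingomyelinase, had the lowest such ratio of these 7 genes, at 9.83 to 11.4 FPKM.

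Among membrane proteins, Cd63, a tetraspanin of late endosomes and secretory lysosomes (chromosome 10, positions 128900989 to 128912822), had 122, 342, 259 and 129 FPKM. Lamp1, a major glycoprotein of the limiting membrane, had 79.8, 133, 116 and 80.3 FPKM. Both were higher in Metrn f/f 2 and Metrn cKO 1, whereas Lamp2, given above, was lowest in Metrn f/f 2. The proton pump showed the same contrast between subunits. Atp6v0c, the proteolipid that forms the rotor ring in the membrane, had 112, 264, 208 and 121 FPKM. Atp6v1a, the catalytic subunit that hydrolyses ATP, had 19.97, 11.2, 19.4 and 20.1 FPKM, with Metrn f/f 2 alone low. Scarb2, the receptor that carries glucocerebrosidase to lysosomes, ranged from 9.57 to 14.4 FPKM, and Mcoln1, a calcium release channel, from 10.5 to 15.6 FPKM, both lower in Metrn f/f 2 and Metrn cKO 1, which after quantile normalization no longer held for Scarb2. After rescaling to the same sum Lamp1 in Metrn f/f 2 lay below Metrn f/f 1, while Cd63 and Atp6v0c stayed higher in both genotypes.

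Tfeb itself (chromosome 17, positions 47737030 to 47792419) had 8.69, 14.8, 17.5 and 7.70 FPKM. Its log2 fold change was 0.037 (SE 0.56), and -0.021 after quantile normalization. Metrn cKO 1 was highest and Metrn cKO 2 lowest, so the groups overlapped. By CACGTG in the promoter, fold changes on the log2 scale had a median of -0.058 in the 12 genes with the motif and -0.028 in the 20 without. For Metrn f/f 2 minus Metrn f/f 1 the medians were 0.16 and 0.17, and for Metrn cKO 1 minus Metrn cKO 2 they were -0.22 and 0.30. No test was made of these medians.

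By summed FPKM, most lists of mature cell markers were higher in Metrn f/f 2 and Metrn cKO 1, as the summed proteases were, and the platelet list was not. Abundant genes lead these sums, and some markers went the other way in 1 or both genotypes. Among them were Cd163 (2.53, 3.74, 1.48 and 3.01 FPKM) and Fn1 (3.35, 1.18, 0.613 and 2.89 FPKM). Of 13 tested macrophage markers, 11 were at least 2-fold higher in Metrn f/f 2 than in Metrn f/f 1 (13.7% of all genes). In Metrn cKO 1 against Metrn cKO 2 this held for 7 (6.72% of all genes). The 16 macrophage markers, led by the complement genes C1qb, C1qa and C1qc, summed to 54.9, 1013, 212 and 64.1 FPKM. The 9 proteases summed to 356, 1114, 574 and 363 FPKM. Among the macrophage markers Marco was listed at 0 in Metrn f/f 1, Metrn cKO 1 and Metrn cKO 2, and no other was at 0 in any library. The 15 monocyte and dendritic markers, led by Ly6c2, Cd74 and H2-Ab1, summed to 858, 3908, 3567 and 724 FPKM. The 13 neutrophil markers, led by S100a9, S100a8 and Ngp, summed to 2696, 33791, 61232 and 2104 FPKM, with Metrn cKO 1 highest as for Psap, Ppt1, Neu1, Gusb and Tfeb. For Gusb this did not hold after rescaling to the same sum or after quantile normalization, where Metrn f/f 1 was highest.

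B and plasma cell markers, led by Igkc, Ighm and Jchain, summed to 233, 3580, 11166 and 332 FPKM, also with Metrn cKO 1 highest. Erythroid markers, led by Hba-a1, Hbb-bs and Hba-a2, summed to 3982, 37637, 31494 and 3219 FPKM. Of the 10 erythroid markers, Gata1 lay below in both cKO mice (10%, against 5.73% of all genes tested). It had 4.02, 17.8, 3.10 and 2.55 FPKM and did not pass the test. Eosinophil, basophil and mast cell markers, led by Prg2, Ear1 and Ear2, summed to 159, 2463, 1941 and 259 FPKM, with Ms4a2 above in both cKO mice. Platelet markers, led by Pf4, Itga2b and Gp9, summed to 36.3, 92.2, 22.9 and 32.9 FPKM, so that Metrn cKO 1 was lowest. T and NK cell markers, led by Nkg7, Cd4 and Cd3g, summed to 147 to 267 FPKM. Most of that was Nkg7, at 149, 248, 170 and 144 FPKM, and 5 of the 9 were listed at 0 in at least 1 library. A list of 8 genes of LSK cells and their subsets, led by Cd34, Flt3 and Kit, summed to 660, 465, 347 and 758 FPKM. Of the genes for the sorted surface proteins, Kit was at 108, 24.8, 25.9 and 116 FPKM, while Ly6a, which encodes Sca-1, was at 37.2, 83.2, 48.4 and 38.2 FPKM. HSC-enriched genes, Gata2 and Meis1 among them, summed to 251, 134, 69.8 and 288 FPKM. The part of other cell types in the lysosomal differences was not tested, and in sorted bulk samples fewer cells of a type and less RNA per cell cannot be told apart.

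**Figure D4:**
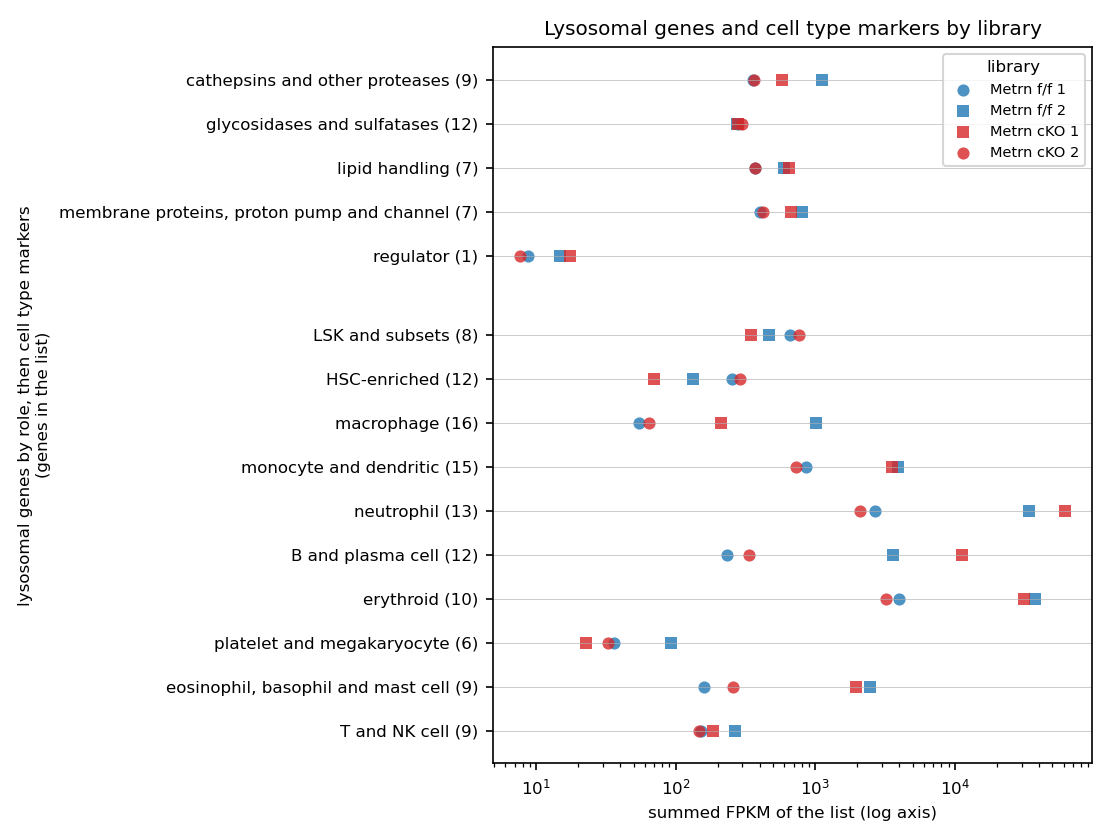
Summed FPKM of each group of lysosomal genes and of each marker list, 1 point per library on a log axis, with the number of genes in parentheses. Proteases and macrophage markers are highest in Metrn f/f 2 and next highest in Metrn cKO 1, whereas glycosidases and sulfatases sum to between 273 and 296 FPKM in all 4 libraries.

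Lysosomal genes outside the 36 were compared in 6 further lists, and no gene of these lists passed the test. The shares of genes with groups apart are to be read against 6.31% of all genes tested for Metrn cKO above and 5.73% for below. Of 28 tested further hydrolases 1 lay above and 1 below (3.57% each). Pla2g15, a lysosomal phospholipase, lay above in Metrn cKO (12.9 and 13.6 FPKM against 15.9 and 15.4) and the acid phosphatase gene Acp2 below (6.97 and 7.08 FPKM against 5.67 and 6.51). Among their most abundant members was Gm2a, which encodes the ganglioside activator protein, at 42.9, 57.9, 51.5 and 42.9 FPKM. The median log2 fold change of these hydrolases was -0.085.

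Of 29 tested membrane and transport genes Ctns, the cystine exporter, and Ostm1, a partner of the chloride transporter ClC-7, lay above in Metrn cKO (6.9%) and none below (median 0.12). Ostm1 had 8.84 and 9.10 FPKM against 11.4 and 10.7 FPKM, and Ctns 5.42 and 4.19 against 5.59 and 6.32 FPKM. Laptm5, M6pr and Laptm4a were the most abundant of this list. Laptm5, a lysosomal membrane protein of blood cells, had 274, 190, 253 and 289 FPKM, lowest where Ctss was highest.

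Of 16 tested proton pump subunits Tcirg1 and Atp6v1c1 lay above in Metrn cKO (12.5%) and none below (median 0.11). Tcirg1 measured 81.7, 75.9, 91.9 and 82.0 FPKM, and Atp6v1c1 had 16.9 and 21.3 against 21.7 and 21.4 FPKM. The small subunits Atp6v1f, Atp6v0b and Atp6v0e were the most abundant and resembled Atp6v0c. Atp6v1f had 76.4, 230, 110 and 94.0 FPKM.

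Of 19 tested MiT factors and nutrient sensing genes none had groups apart (median 0.11). The most abundant of them, the Ragulator genes Lamtor2, Lamtor4 and Lamtor1, were higher in Metrn f/f 2 and Metrn cKO 1, with Lamtor2 at 61.6, 173, 131 and 58.8 FPKM. The list as a whole did not follow them. Metrn f/f 2 was at least 2-fold above Metrn f/f 1 in 4 genes and below in 7, against 13.7% and 21.9% of all genes. The median log2 difference was -0.16 there and 0.023 for Metrn cKO 1 minus Metrn cKO 2. Of 25 autophagy genes Uvrag lay above in Metrn cKO (4.0%; 20.2 and 13.1 FPKM against 22.2 and 20.2) and none below (median 0.12). Its most abundant members were Gabarap, the cargo receptor gene Sqstm1 and Gabarapl1. Gabarap had 70.9, 219, 148 and 74.4 FPKM.

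Of 4 tested cystatin genes, which encode inhibitors of cathepsins, none had groups apart (median -0.15). Cst3, which encodes the secreted inhibitor cystatin C, had 248, 856, 663 and 253 FPKM, and so followed the same order of libraries as Ctss. Cst7 and Cstb were the next most abundant.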

How the data were processed

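RNA-seq was done on bone marrow LSK cells, from 2 mice of each genotype per the labels. The authors deposited 1 table of normalized values per library. These were read as FPKM, made by the authors, because they have decimals, are never negative and sum differently per library. The file headers give only gene symbols and library names. These traits do not single out FPKM among normalized units, so the unit is an inference. Comparisons of level between genes rest on it. According to the submitters' processing notes, which assign no roles, HISAT2 2.1, featureCounts 1.6.4, cutadapt 1.16.5, bcl2fastq 2.19, mm10 and DESeq2 2.11.40.6 were used. For the annotation and the strand setting, nothing was given in the sources used here. Read depth is unknown, and FPKM sums ranged from 392717 to 671802.

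The 13148 genes reaching 1 FPKM in 2 or more libraries were fitted on log2(FPKM + 1) with limma 3.58.1 in R 4.3.3 (intensity trend, Benjamini-Hochberg adjustment, threshold 0.05); the script was tested on simulated data. Alternatives were other pseudocounts, filters and scalings, no trend, a block, and leaving out libraries. The genes and lists were chosen with earlier results of these data known. All 36 genes are named, those averaging 20 FPKM or more, or with groups apart, by library. Lgmn, Neu1, Npc1, Atp6v1a and Tfeb were given by library, and Gm2a, Laptm5, Atp6v1f, Lamtor2, Gabarap, Cst3, Kit, Ly6a and Lyz2 with values, after these were seen. From other lists the 3 most abundant genes and those with groups apart are named, except a few that are not reported here. Coordinates are from GENCODE release 21 for mouse (GRCm38, called mm10).

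Exons of 12 of the 36 genes overlap another gene (Ctsa, Ctsb, Ctsd, Ctsl, Ctsz, Hexa, Glb1, Idua, Sgsh, Npc1, Ppt1 and Lamp1), and Cd63 and Atp6v0c have named pseudogenes. Reads there may be shared, so these levels are uncertain.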

Additional observations from a re-analysis of the deposited data

How the results depend on the processing

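With 2 mice per genotype and unknown depth, only large differences could pass. No lysosomal gene was called under any alternative tested. Over all genes, 3 were called higher and 1 lower with the replicate number as a block (replicate block). Same-numbered libraries deviated in opposite directions (r = -0.71). With 2 mice per genotype that sign depends on how the mice were numbered, so it cannot decide whether equal numbers pair them. With the crossed pairing, chosen after the data were seen, 37 genes were called higher and 65 lower. Leaving out each library in turn gave 0 to 32 genes called higher and 0 to 4 lower, with the 32 and 2 of the lower calls without Metrn cKO 2 and 4 lower without Metrn cKO 1. The median log2 fold change of the lysosomal genes ranged from -0.26 (without Metrn f/f 1) to 0.014 (without Metrn f/f 2) in the same way, and 27 of the 36 estimates changed sign. The range was 0.91 to -2.21 for Lgmn, 0.11 to -1.39 for Ctsd, 0.41 to -1.53 for Ctsb and -0.21 to 1.01 for Sgsh, whereas Ctsl, Tpp1, Gla and Lamp2 kept their sign, as groups that do not overlap must. For Metrn cKO 2 minus Metrn f/f 1 alone, likewise added later, Ctsd was at 0.023. After rescaling to the same sum the median difference between mice of 1 genotype was -0.54 for Metrn f/f and -0.31 for Metrn cKO, in place of 0.20 and 0.12.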
